A study of Mus musculus with 2 samples.

Results

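The long non-coding probes described here gave a clear signal in both the tooth and the skin of newborn mice and differed little between these tissues. They were chosen by their measured values. A probe was kept when the extraction software called it well above background on both arrays, when its level was above -1 on both, and when skin minus tooth was below 1 in size (log2). The level of a probe is the log2 of its processed signal minus the 75th percentile of its own array, so that 0 stands for the brightness at that percentile. Of 16248 long non-coding probes measured on both arrays, 1247 (7.67%) met the rule. They lay in 808 of the 4622 regions that the array annotates as long intergenic non-coding RNA (lincRNA).

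The study compared wild-type tooth and skin at postnatal day 0. Total RNA was hybridised to Agilent 60-base oligonucleotide arrays, with 1 tooth array and 1 skin array on the same slide. No allele, transgene or treatment is given for either tissue, and the labels do not say how many animals were pooled. The study's methods name a stage 1 day later than the labels, which were followed. Both tissues were taken whole, so that each holds epithelium and mesenchyme, and in such bulk RNA fewer cells of a type and less RNA per cell cannot be told apart. With 1 array per tissue there is no spread between animals. No test was run, and no difference given here has a replicate check.

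Long non-coding RNAs are transcripts without a long open reading frame. H19 is an imprinted RNA expressed from the maternal chromosome. Some act where they are made: Kcnq1ot1 silences neighbouring imprinted genes, and Xist coats the inactive X chromosome of female cells. Others are present in most cells, such as Malat1 (also called Neat2), which resides in nuclear speckles, Neat1, which builds paraspeckles, Tug1 and the DNA-damage-induced RNA Norad. In the newborn tooth, ameloblasts and odontoblasts lay down enamel and dentin, whereas the epidermis keratinises and grows hair follicles.

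The sequences below belong to members in regions that the array names after known transcripts, each being the brightest member of its region. All probes are 60 bases long, are written 5′ to 3′ and are placed on mm9. No motif was marked in these 5. The array's probes for the gene Kcnq1ot1 lie on the minus strand, so that the KCNQ1ot1 region probe, on the plus strand, reads the opposite strand.
H19 probe, chr7:149761693-149761752, minus strand: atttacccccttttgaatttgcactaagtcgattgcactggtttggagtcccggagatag
XIST probe, chrX:100655839-100655898, minus strand: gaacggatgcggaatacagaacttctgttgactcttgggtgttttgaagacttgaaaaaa
TUG1 probe, chr11:3540263-3540322, minus strand: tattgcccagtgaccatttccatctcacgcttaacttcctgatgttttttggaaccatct
NEAT2 probe, chr19:5795713-5795772, minus strand: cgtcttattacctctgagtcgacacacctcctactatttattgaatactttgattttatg
KCNQ1ot1 probe, chr7:150482141-150482200, plus strand: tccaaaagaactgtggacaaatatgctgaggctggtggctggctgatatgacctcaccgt

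The next set shows bright members whose sequence recurs in a probe for a protein-coding gene on another chromosome. Capitals mark the longest stretch shared with that gene's probe: 45 bases with Rps16, 31 bases with Rps16 and 28 bases with Rps29. These are genes of the small ribosomal subunit. The first pair also share 26 bases with each other. The last probe has no mapped position in the array's annotation and is given by its region.
Rps16-sharing probe, chr11:22686751-22686810, minus strand: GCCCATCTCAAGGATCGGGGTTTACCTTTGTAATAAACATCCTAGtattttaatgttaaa
Rps16-sharing probe, chr2:167106861-167106920, minus strand: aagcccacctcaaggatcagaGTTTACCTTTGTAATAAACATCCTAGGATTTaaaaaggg
Rps29-sharing probe, lincRNA region of chromosome 7 between P2ry2 and Fchsd2: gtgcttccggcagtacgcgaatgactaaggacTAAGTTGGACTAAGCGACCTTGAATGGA

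The third set shows members with a very high content of G and C, which were 7 of the 10 brightest members when 1 was taken per region and strand. Capitals mark the longest stretch of G and C alone. The second line is the neighbour of the first on the same strand and is no member.
Member, chr14:78936616-78936675, plus strand: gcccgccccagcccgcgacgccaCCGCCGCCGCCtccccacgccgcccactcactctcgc
Neighbour, chr14:78936556-78936615, plus strand: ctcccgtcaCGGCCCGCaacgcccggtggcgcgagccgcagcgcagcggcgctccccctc
Member, chr12:73862326-73862385, minus strand: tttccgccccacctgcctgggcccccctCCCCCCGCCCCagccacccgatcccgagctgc
Member, chr12:73862399-73862458, plus strand: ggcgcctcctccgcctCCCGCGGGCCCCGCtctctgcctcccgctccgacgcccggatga

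Of the 16248 long non-coding probes, 4867 (30.0%) were well above background on both arrays, and 1401 of these were above -1 on both. Members were 89.0% of these bright probes. The remaining 154 were at least 2-fold apart, 94 with more signal in skin and 60 with more in tooth. Among all 4867, 16.8% were at least 2-fold apart, 12.5% with more in skin and 4.31% with more in tooth. The rule fixed that no member was. The same limits kept 12273 of 39427 other probes (31.1%), so that signal both bright and similar was less common among the long non-coding probes. Bright on both arrays were 8.62% of the long non-coding probes and 36.7% of the other probes. Once bright, 12273 of 14471 other probes were within 2-fold, beside 1247 of 1401 long non-coding probes. Because these values chose the members, they are a description only.

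Member levels reached 9.03 in tooth, with a median of 0.70, and 9.28 in skin, with a median of 0.73. In 779 members the level was above 0 on both arrays, and in 113 it was above 4 on both. The processed signals were between 214.2 and 223900 in tooth and between 138.3 and 171600 in skin. None was saturated, and none of the 308 negative control spots on either array reached the limit of -1. Skin minus tooth had a median of 0.14 and quartiles of -0.17 and 0.41, and 909 members were within 0.5. On this scale 767 members were higher in skin and 480 in tooth. This split depends on the scaling: 471 were higher in skin after scaling to the median of all probes, which shifted all differences by -0.25, and 89 after scaling to 8 spike-in RNAs, which shifted them by -0.69. The signs given below are on the 75th percentile scale. A difference toward skin smaller than 0.25 turns under the first of these scalings and one smaller than 0.69 under the second.

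A lincRNA probe has 1 spot, so its error comes from elsewhere. The extraction software put the error of a member's signal at a median of 10.02% in tooth and 10.06% in skin. From probes with at least 8 spots, the spot scatter gives a difference between the arrays an SD of 0.12 (log2). Just inside the limits lay a probe at -0.9981 in tooth (chr6:47690453-47690512) and one at 0.9982 for skin minus tooth (chr3:85783349-85783408). Just outside lay one at -1.0002 in tooth (chr5:33181013-33181072) and one at 1.0019 (chr1:162934720-162934779). These pairs are closer to each other than the spot scatter.

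**Figure D1:**
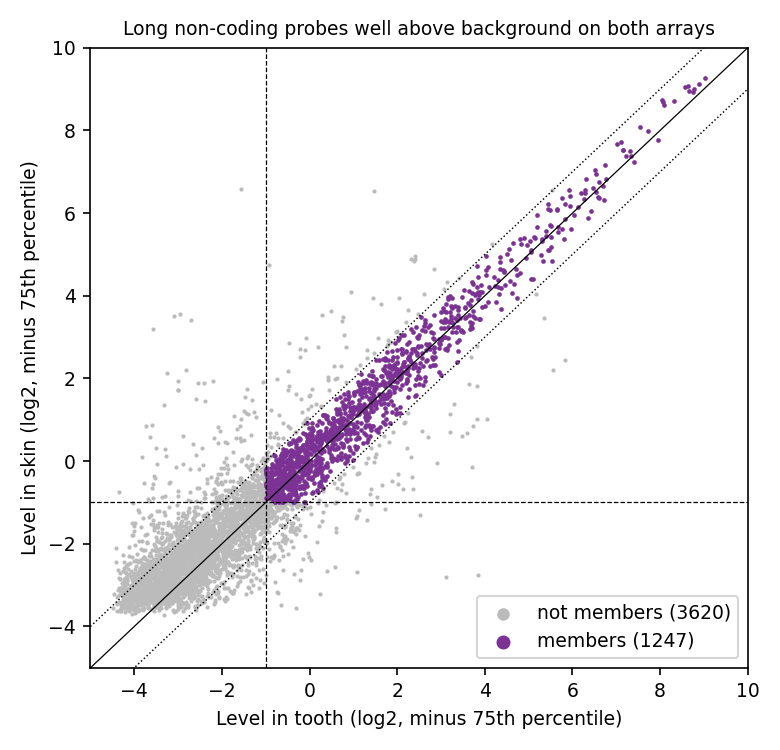
Level in tooth (x axis) and skin (y axis) of the long non-coding probes well above background on both arrays, in log2 minus the 75th percentile of each array. Purple points are the 1247 members, grey points the 3620 others; dashed lines mark the level limit of -1 and dotted lines a 2-fold difference, and members reach 9.03 in tooth and 9.28 in skin.

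The defining markers matched the labelled tissues. The 5 tooth genes, Amelx, Ambn and Enam for enamel and Dspp and Dmp1 for dentin, were well above background in tooth and not in skin. The 5 skin genes, Krt1, Krt10, Flg, Lor and Krt71, were higher in skin by 8.39 to 12.89 (log2) and still above background in tooth. Of the other lists, 3 of 3 fat genes were above background in skin and none in tooth, 3 of 3 melanocyte genes were so in skin and 2 in tooth, and 3 of 4 muscle genes were so in both, those 3 being higher in skin by 2.80 to 3.38. Other genes went the opposite way: Col2a1 of cartilage was 5.49 higher in tooth and not above background in skin, Acan of cartilage was 1.36 higher in tooth, and Cdh5 of endothelium 2.70 higher in tooth, while Pecam1 and Kdr of endothelium were 0.50 and 0.43 higher in skin. Of 3 Schwann cell genes, 3 were above background in tooth and 2 in skin, and of 4 red cell genes 2 were so in each. Their part in the members' signal was not tested. The differences of 8 housekeeping genes lay between -0.76 and 0.44.

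All of the 5 probes of the H19 region were members. From the 3′ end inwards they measured 6.31, 5.83, 4.52, 3.82 and 4.34 in tooth. In skin the same probes measured 6.84, 6.22, 5.01, 4.21 and 4.83. Each probe was higher in skin, by 0.39 to 0.53, so that the probes gave like differences at unlike levels. Scaling to the spike-ins turned this sign, with differences from -0.30 to -0.16. The array also has 2 probes for the H19 gene inside this region, both well above background on both arrays. The one at chr7:149761492-149761551 measured 7.84 in tooth and 8.43 in skin, 0.59 higher in skin. The one at chr7:149762417-149762476 measured -3.49 and -3.00, 0.49 higher in skin and below the limit of -1.

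The 5 probes of XIST were all members and lay close to equality on the 75th percentile scale, at 3.01, 2.37, 1.41, 0.50 and 1.37 in tooth and at 2.99, 2.24, 1.296, 0.49 and 1.08 in skin. Skin minus tooth was between -0.29 and -0.02, and 4 of these 5 differences were at most 0.12 in size, about the size of the spot scatter. With the authors' values, 1 of the 5 turned positive, at 0.0016. After scaling to the median of all probes the differences lay between -0.54 and -0.27, and after scaling to the spike-ins between -0.98 and -0.71. The separate Xist gene probes, both well above background, differed by 0.04 and 0.03. The labels do not give the sex of the animals, so that the share of female cells in each sample is not known.

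Tug1 is an RNA first known from the retina, and all 5 probes of the array's TUG1 region were higher in tooth. They measured 1.67, 1.75, 1.42, 0.40 and 0.37 in tooth and 0.94, 1.18, 0.84, -0.35 and -0.37 in skin. The differences, from -0.75 to -0.56, all exceeded the spot scatter and kept their sign under every scaling tried. They passed the 2-fold limit after scaling to the spike-ins, which would take all 5 out of the members. Elsewhere along Tug1 the difference varied. The 3 gene probes, with clear signal on each array, differed by -0.71 at chr11:3540471-3540530, by 0.03 at chr11:3542143-3542202 and by -1.0006 at chr11:3544194-3544253. A member of another region, which shares 58 bases with the second of these, measured 0.60 in tooth and 0.58 in skin.

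The Malat1 locus gave unlike differences along its length. The array's NEAT2 region spans chr19:5795689-5802671 on the minus strand, and its 3 probes lie at the 3′ end. They measured 1.04, 0.65 and 0.71 in tooth and 0.36, 0.13 and 0.04 in skin, which is 0.53 to 0.68 lower in skin. Within that span on the same strand the array has 2 more lincRNA regions of 3 probes each, and all 6 probes were members. In the middle, at chr19:5798135-5800557, the probes measured 4.02, 4.34 and 3.40 in tooth and 4.51, 4.65 and 3.65 in skin. They were thus 0.25 to 0.50 higher in skin. All 3 were lower in skin after scaling to the spike-ins, and 1 was after scaling to the median. At the 5′ end, at chr19:5801802-5802597, the probes measured 7.33, 5.31 and 6.14 in tooth and 7.38, 5.34 and 6.14 in skin. There skin minus tooth was 0.05, 0.02 and 0.01, below the spot scatter, and its sign turned under 3 kinds of scaling and under another background correction. The 3′ probes stayed lower in skin under each of these, and after scaling to the spike-ins all 3 passed the 2-fold limit, at -1.37 to -1.22, which would take them out of the members. The separate Malat1 gene probe, at the position of the first NEAT2 probe, measured 1.03 in tooth and 0.38 in skin, with a difference of -0.65.

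The other named transcripts held few members. Of the 5 probes of the KCNQ1ot1 region, which are on the strand opposite to the Kcnq1ot1 gene probes, 1 was a member, at 1.36 in tooth and 2.08 in skin. Its neighbour, whose start lies 60 bases away, was at -4.30 and -4.29. The brighter Kcnq1ot1 gene probe measured 0.32 and 0.33. All 5 NEAT1 probes were bright but 2.44 to 2.57 higher in skin, and therefore fell outside the limits. HOTAIR, NRON, TSIX, PINC, BRN1-A and lincP21 held no member. No probe of TSIX, PINC, BRN1-A or lincP21 was well above background on both arrays. TSIX is known as the antisense transcript of XIST.

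**Figure D2:**
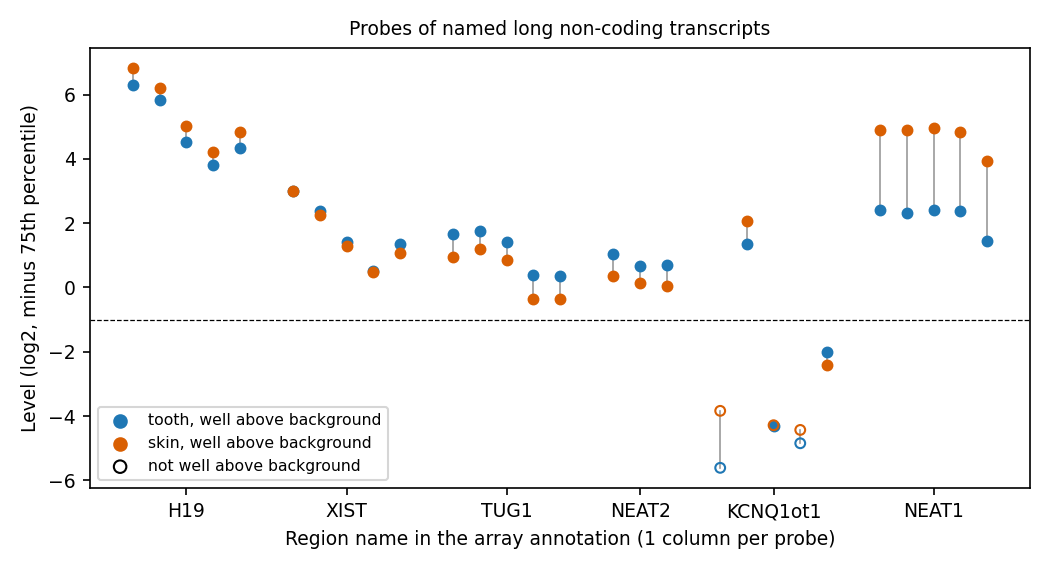
Level (y axis, log2 minus the 75th percentile) of each probe of 6 named transcripts, with 1 column per probe in order of position, blue for tooth and orange for skin, and open symbols for probes not well above background. H19, XIST, TUG1 and NEAT2 lie above the dashed limit of -1 with tissues close together, KCNQ1ot1 has 1 probe above it, and NEAT1 is 2.44 to 2.57 higher in skin.

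A list of 39 named long non-coding genes, chosen for comparison, gave a similar picture through the probes that the array assigns to genes. Each gene was judged by its brightest probe. Of these genes, 29 had a probe and 21 were well above background on both arrays. Between tissues, 19 of the 21 were within 2-fold. Neat1 (2.70 higher in skin) and Mir17hg (1.24 higher in skin), the host gene of a microRNA cluster, were not, and no brightest probe was at least 2-fold higher in tooth. Of the listed genes 15 had more than 1 probe, and these could differ. Counting every probe of the list that was well above background on both arrays, 32 of 37 were within 2-fold, 2 passed that limit toward skin and 3 toward tooth. These 3 were probes of Airn (-1.01), Tug1 (-1.0006) and Pvt1 (-1.54), whose brightest probes differed by -0.34, 0.03 and 0.09. Among all probes well above background on both arrays, 20.2% were at least 2-fold apart, 10.7% toward skin and 9.49% toward tooth. Gas5, a host gene of small nucleolar RNAs, measured 4.89 in tooth and 4.71 in skin. The imprinted Meg3 measured 2.28 and 2.90, and Snhg6 measured 3.32 and 3.14. Dlx6os1, transcribed opposite a homeobox gene, was well above background in tooth at -0.51 but not in skin.

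The locus with the largest number of members stood on chromosome 17, at chr17:39960567-39992817. All of its 20 probes, from overlapping regions, were members, 10 on each strand. The 10 minus-strand probes started between positions 39980297 and 39981387, and the 10 plus-strand probes between 39982106 and 39985629. Levels ran from 2.71 to 8.76 in tooth and from 3.24 to 8.94 in skin, and every probe was higher in skin, by 0.16 to 0.89. After scaling to the spike-ins 18 of the 20 were higher in tooth instead, and after scaling to the median 5 were. Their median GC content was 62.5%. The brightest, starting at 39983218, measured 8.76 in tooth and 8.94 in skin. The array's nearest gene probes on either side are for Olfr136 and Pgk2. Between these genes RefSeq (GRCm38.p6) lists 14 genes, among them the long non-coding gene AY036118 and Rn18s-rs5, a pseudogene related to 18S ribosomal RNA. Which of these the probes overlap was not analysed, since no annotation of mm9 was used.

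Other loci held members beside probes outside the set, some dim and some bright. Around Tug1, at chr11:3521324-3554450, 16 of 36 probes were members, and around Malat1 and Neat1, at chr19:5771425-5848475, 13 of 35 were. At chr8:72663591-72673010, where the array places Borcs8, a gene for a subunit of a lysosome-positioning complex, 11 of 23 were members, all on the plus strand and all 0.21 to 0.81 higher in skin. At chr5:74487385-74497428, 10 of 23 were members.

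This region on chromosome 5 lies over Dancr, a long non-coding RNA known for keeping progenitor cells undifferentiated. Of its 10 plus-strand probes 8 were members, and neighbouring probes differed. The first, starting at 74489423, measured -0.55 in tooth and -0.03 in skin, and the one at 74489483 measured -0.78 and 0.12, which is 0.53 and 0.90 higher in skin. The one starting at 74489543 measured 4.04 in tooth and 4.97 in skin, 0.94 higher in skin. The next one, at 74489603, measured 4.16 and 5.25, and its difference of 1.10 left it just outside the set. The one after it, at 74489663, measured -2.99 and -2.92. From 74490022 to 74490275 the last 5 probes measured 1.23 to 2.41 in tooth and 1.31 to 2.35 in skin, with differences from -0.06 to 0.38. The Dancr gene probe measured 2.25 and 2.26. The first 4 probes, dim and bright alike, thus gave a larger difference than the last 5 and the gene probe.

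At chr17:26911397-26917047, between Crebrf and Bnip1, 8 of 10 plus-strand probes were members, and their differences lay between 0.12 and 0.34. The members there measured from -0.40 to 0.91 in tooth and from -0.19 to 1.12 in skin. At chr14:22267795-22319045, between Adk and Kat6b, 6 of 10 were members, of which 5 have no mapped position. The mapped one was 0.30 higher in skin, and those 5 were 0.30 to 0.75 higher in tooth.

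Brightness varied widely, and the signal of different probes is no common scale of RNA amount. Among the 10 brightest members, 1 per region and strand, 7 had a GC content of 65% or more. The brightest, at chr14:78936616-78936675, measured 9.03 in tooth and 9.28 in skin, with 83.3% GC. Its neighbour, printed above with 81.7% GC, measured -1.73 and -1.87. For the other 5 probes of that region no signal well above background was called. The member shares 58 bases, in the opposite orientation, with the RefSeq promoter window of Akap11, an anchor protein of protein kinase A.

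The same contrast recurred. At chr6:83406215-83406274 a member measured 8.88 and 9.11, the probe starting 60 bases on measured -1.23 and -0.61, and another at 83406382 measured 3.83 and 2.80. On chromosome 4, at chr4:94822842-94822901, a member measured 8.07 and 8.68 while its partner measured -6.72 and -5.96. The pair printed above from chr12:73838608-73862621 lay on opposite strands with starts 73 bases apart. The minus-strand probe measured 8.67 and 8.95 and the plus-strand probe 8.57 and 9.04. Each had a same-strand neighbour within the limits, starting 60 bases away, at -0.73 and -0.17 on the minus strand and at -0.68 and -0.09 on the plus strand. A member on chromosome X (chrX:18814996-18815055), at 8.04 and 8.75, shares all 60 bases with the opposite strand of the Gm14636 promoter window. All 10 of the brightest were higher in skin, by 0.18 to 0.70. After scaling to the median 6 of the 10 were, after quantile normalisation 5 were, and after scaling to the spike-ins 1 was.

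GC content was also related to membership over the whole set of probes. Among long non-coding probes with less than 35% GC, 3.62% met the limits, and among those with 65% or more, 41.8% did (115 of 275). For all other probes on the array the shares were 24.8% and 45.4% (59 of 130), so that the difference between the kinds of probe was large at low GC and small at high GC. Of the members 9.22% had 65% GC or more, against 1.69% of all long non-coding probes, and 12.2% held at least 4 CpG dinucleotides, against 3.42%. Among the 50 brightest members these shares were 36.0% and 44.0%. Over the 1247 members, GC content had a Pearson r of 0.21 with the mean level and of 0.21 with skin minus tooth. These probes share both arrays and their labelling, and what part base composition had in the signal was not tested.

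**Figure D3:**
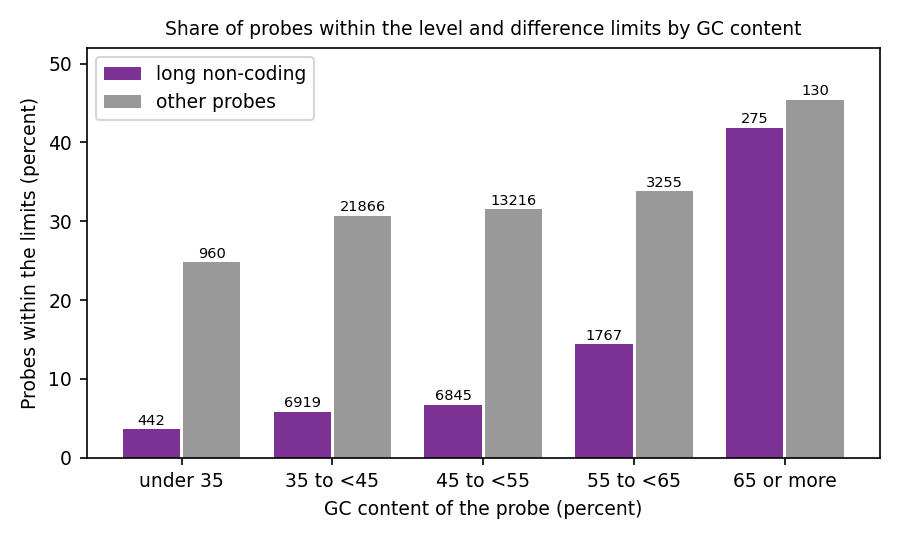
Percent of probes (y axis) that were within the level and difference limits, by GC content of the probe (x axis, percent), for long non-coding probes (purple) and all other probes (grey); the number over each bar is the number of probes. The purple bars rise from 3.62% under 35% GC to 41.8% at 65% or more, and the grey bars from 24.8% to 45.4%.

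The letters AATAAA, the usual poly(A) signal, stood in 67 members (5.37%), searched on the probe's own strand, and in 3.92% of all long non-coding probes. Among the 50 brightest 5 held it. They include the Rps16-sharing pair printed above. Another pair, with starts 60 bases apart in chr17:17481706-17482457, measured 7.95 and 7.40 in tooth and 7.77 and 7.25 in skin. A match of letters is a description and shows no use as a signal.

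Sequence shared with a gene elsewhere set apart some of the brightest members. Against the array's probes for genes matched to RefSeq, 29 members (2.33%) shared at least 20 bases with a probe at another place. Of all long non-coding probes 0.32% did, and of those well above background on both arrays but outside the set 0.276% did. Among the 50 brightest members 6 did (12.0%), 5 of them with a ribosomal protein gene. The Rps16-sharing probe on chromosome 11 measured 8.64 in tooth and 9.06 in skin, and the Rps16 probe itself 8.74 and 9.21. The Rps16-sharing probe on chromosome 2 measured 7.14 and 7.51. For the Rps29-sharing probe the values were 8.32 and 8.72, beside 8.69 and 9.01 for Rps29. A probe at chr17:48073450-48073509, at 6.77 and 6.83, shared 22 bases with Mif, a gene for an inflammatory cytokine, which measured 7.14 and 7.27. A probe at chr14:49315252-49315311, at 5.94 and 6.18, shared 22 bases with Rpl11, a gene of the large ribosomal subunit.

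The tissue differences of these members lay close to those of the genes whose sequence they share. Over all 29 the gap between the differences had a median of 0.07 and a maximum of 0.68, and over the 6 brightest the maximum was 0.10, below the spot scatter. The same median gap was 0.19 for such probes above background outside the set, of which there were 10, and 0.12 for all 52 such long non-coding probes. The limit on the differences of the members narrows their value. Further such genes were Cox5b, of the respiratory chain, with 36 shared bases and differences of -0.15 for the member and -0.14 for the gene, and Fkbp1a, a peptidyl-prolyl isomerase, with 42 shared bases and differences of -0.56 and -0.42. In 3 of the 29 more than 1 gene had an equally long shared stretch, and the first probe by name was taken. With the nearest of the equal genes the maximum was 0.28 instead of 0.68, and the median 0.07 as before. RefSeq lists the pseudogene Gm5735 between P2ry2 and Fchsd2, which flank the region of the Rps29-sharing probe. Between Tmem17 and B3gnt2, which flank the Rps16-sharing probe on chromosome 11, it lists the pseudogenes Gm12057 and Gm12058. These stretches are wide, at 96446 and 315508 bases, and the flanks of the other sharing probes are not given. Whether the signal came from the lincRNA regions or from the named genes was not tested. Only probes on the array were searched, so that sharing with other transcripts is not counted.

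**Figure D4:**
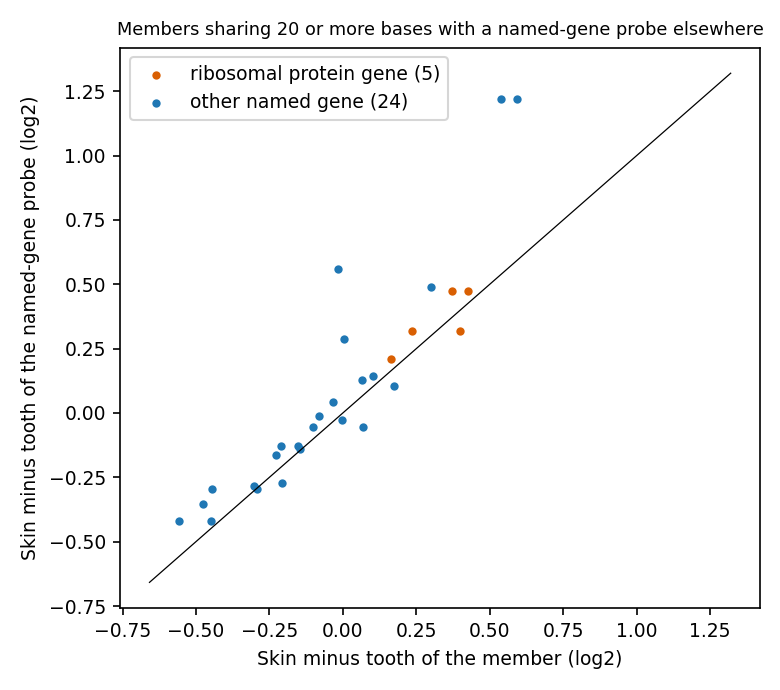
Skin minus tooth (log2) of 29 members (x axis) and of the named-gene probe elsewhere with which each shares 20 or more bases (y axis), with orange for ribosomal protein genes and blue for other genes; the line marks equal values. Most points lie near the line, with a median gap of 0.07 and a largest gap of 0.68.

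Of the 808 regions, 567 held 1 member, 119 held 2 and 122 held 3 or more, so that 680 members shared their region and strand with another member. A partner is another probe of the same region and strand, and 1518 of the 4734 partners, counted by pairs, were members themselves. A member is above background by the rule, so shares over all partners partly restate the rule. Of 1166 members with a partner, 971 (83.3%, exact 95% binomial interval 81.0 to 85.4, counting error only) had at least 1 well above background on both arrays. The share was 72.1% for long non-coding probes that were well above background on both arrays but no members, 78.8% (71.2 to 85.1) for the 154 bright probes at least 2-fold apart, and 57.0% for all long non-coding probes. Counted by pairs, 58.7% of the members' partners were so, against 44.3%, 61.1% and 30.5%. Over partners that were not members, the share was 68.9% (65.8 to 71.8) for members, 67.1% (65.5 to 68.7) for the other probes above background, 76.4% (68.6 to 83.1) for the 154 and 50.4% for all long non-coding probes. By pairs it was then 39.2%, 38.5%, 56.3% and 24.5%. Without the member partners, the shares of members and of the other probes above background lay close together. The intervals treat probes as independent, although probes of a region share partners and all share the arrays, so no conclusion is drawn from them. For 195 members all partners fell short, and 81 members had no partner.

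Over all partners the share was lower from 1000 bases on. Partners with starts 60 to under 300 bases away were well above background on both arrays in 68.7% of pairs, against 29.7% for pairs starting from any long non-coding probe. At 300 to under 1000 bases the share was 63.2% against 29.9%. From 1000 to under 10000 bases it fell to 39.3% against 30.8%, and beyond that it was 42.3% against 33.3%. Over partners that were not members these shares were 43.2%, 46.6%, 30.3% and 36.6%, against 24.0%, 23.4%, 25.2% and 26.3%. The members' regions had a median length of 14576 bases. Partners overlap only where their starts are under 60 bases apart, as in 44 pairs.

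Partners also varied in their tissue difference. The gap between the difference of a member and those of its partners, taken as the median over its partners, had a median of 0.26, against 0.40 for the other long non-coding probes well above background on both arrays and 0.26 for the 154 bright probes at least 2-fold apart. The limit on the differences of the members, and of those partners that are members, narrows the first value. Over partners that were not members the medians were 0.44, 0.41 and 0.20. Over all partners the gap was 1 or more in 7.0% of members, in 14.8% of the others above background and in 30.4% of the 154. Over 968 pairs of a member and its brightest partner well above background, the differences had a Pearson r of 0.36. These points share the arrays, and many share a region. Of these partners 658 were members, whose differences the rule bounds. Of the 310 such partners that were not members, 225 (72.6%) were within 2-fold between tissues, against 77.4% of all non-member long non-coding probes well above background on both arrays.

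A partner well above background on both arrays was present for 971 members. In 195 of these, the tissue difference of at least 1 such partner was 1 or more from that of the member. The same count was not made for other probes. The brightest of the 195 was the chr6:83406215 member, 0.23 higher in skin, whose partner at 83406382 was 1.03 lower. At chr13:73479858-73479917, in a region that the array places with Eprn, a member measured 7.55 and 8.09 and its partner at 73479409 measured -1.13 and -2.89. At chr11:97305517-97305576 a member measured 7.10 and 7.72, while a partner at 97280163 measured -1.47 and 1.55, which is 3.02 higher in skin. At chr15:85533269-85533328 a member measured 7.31 and 7.49, while a partner at 85537347 measured 3.21 and 1.13, which is 2.08 lower in skin. At chr16:39984671-39984730 a member measured 7.15 and 7.53, and its partner at 39984770 measured -3.74 and -2.14. In these places a single region name covered unlike tissue patterns.

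**Figure D5:**
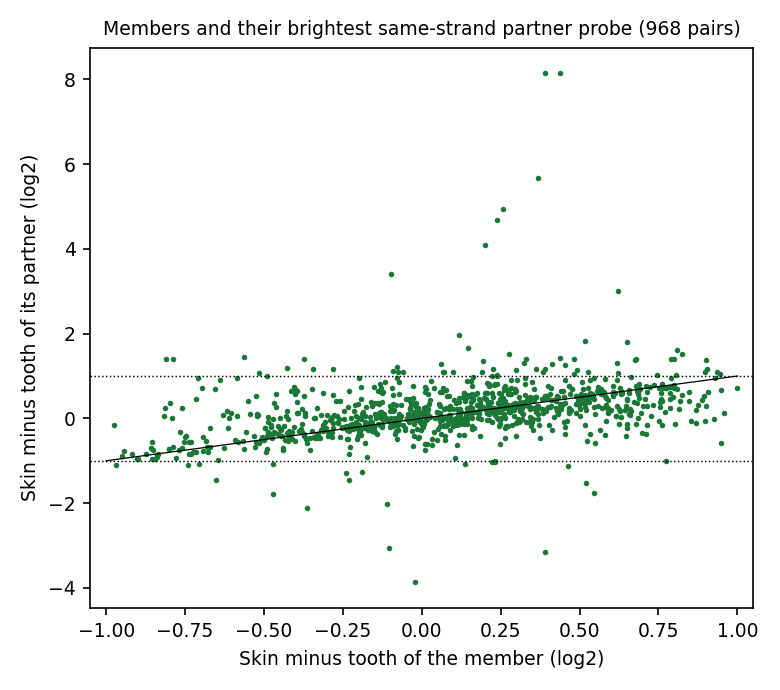
Skin minus tooth (log2) of a member (x axis, bounded by the rule at 1 in size) and of its brightest partner probe of the same region and strand that was well above background on both arrays (y axis), for 968 pairs. The line marks equal values and dotted lines a 2-fold difference of the partner; 658 of the partners are members, which the rule places between the dotted lines, and partner differences range from -3.87 to 8.15.

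A probe on the opposite strand of their region was present for 951 members. Of these, 752 (79.1%, exact 95% binomial interval 76.3 to 81.6, counting error only) had at least 1 that was well above background on both arrays. For all long non-coding probes the share was 72.1%, and by pairs it was 40.6% against 32.7%. Counting opposite-strand probes that were not members, the share was 71.0% (67.9 to 73.9) for members and 67.1% (65.2 to 68.9) for the other probes above background, and by pairs 30.8% against 27.5%. There were 522 pairs of members on opposite strands, of which 33 had starts under 60 bases apart and 114 under 300. Such pairs are not counted here for other probes, so these numbers are a description only. At chr5:34713032-34713091 a plus-strand member measured 5.49 and 6.08, and a minus-strand member whose start is 9 bases away measured 3.83 and 4.098.

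Some members measured RNA that the array also measured under another name. Of the members, 32 shared at least 40 bases at the same place with a probe outside the lincRNA set. All 32 of these other probes were well above background on both arrays and within 2-fold between tissues, and the differences were 0.05 apart at the median and 0.13 at the 90th percentile. This is a technical repeat on the same arrays, and the limits on the members carry over to these probes. The count is not given for other long non-coding probes.

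Among 1227 members with a position, 90 (7.33%) had a same-strand probe for a named gene within 1 kb, against 3.08% of all long non-coding probes. In 88 of these 90 (97.8%) the gene probe was well above background on both arrays. This share was 72.1% for the other probes above background and 60.2% for all long non-coding probes. Over the 88 the median gap between the differences was 0.12. That gap was 0.27 for the other probes above background and 0.30 for all long non-coding probes. Within 2-fold between tissues were 87.5% of those gene probes, against 59.7% and 73.6%, and 76.9% of all named-gene probes above background. Some gene probes overlap their member, with 35 shared bases in the Cdc42 case below, so that the limit on the member carries over to them. On the opposite strand 1.55% of members had a named-gene probe within 1 kb, against 2.53%. The brightest case, at chr4:136875838-136875897, measured 5.67 and 5.55 and lay 25 bases from the probe for Cdc42, a small GTPase of cell polarity, at 5.49 and 5.40.

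Norad, which binds Pumilio proteins, had a pair of members within 230 bases of its gene probe. The one at chr2:156214183-156214242 measured 5.10 and 4.42, and that at chr2:156214243-156214302 measured 4.73 and 3.94. That gene probe measured 3.92 and 3.22, and the differences of -0.68, -0.79 and -0.70 were alike within the spot scatter. The other 3 Norad gene probes, which start between 156216167 and 156218281, were dimmer and differed by -0.29, -0.18 and 0.34. A member at chr12:55847350-55847409 lay 36 bases from the probe for Snx6, a sorting nexin of the retromer. Its difference was -0.18, beside -0.20 for Snx6.

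Within the RefSeq promoter windows, 67 members (5.37%) shared at least 20 bases with a window and 33 (2.65%) at least 40, against 2.33% and 1.35% of all long non-coding probes. Of the 33, 23 ran in the opposite orientation to the gene and 10 in the same. Besides Akap11 and Gm14636, the brightest was a probe at chr7:82926943-82927002, at 6.58 and 6.40, with 46 bases opposite AU020206. With microRNA hairpins 2 members shared sequence. The first, on chromosome 8 at 1.52 and 1.39, shared 58 bases with Mir8110 in the same orientation, and the other, at 2.11 and 2.70, shared 20 bases with Mir1187 in the opposite one. Further long non-coding probes outside the set also matched a hairpin, so such a match is not particular to members.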

How the data were processed

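Total RNA from 1 tooth and 1 skin sample was measured on 1-colour Agilent arrays (mm9 design). The deposited spot values were intensities from Agilent Feature Extraction 10.7.3.1, in which the software had subtracted background and removed trends, with yes-or-no calls for outliers, saturation and signal above background. The authors also deposited a table in which each value is a ratio of that intensity to 1 factor per array (430.71 tooth, 274.52 skin), linear and not centred, with medians of 0.081 and 0.0989. It served as an alternative.

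Here, outlier spots were left out (3 lincRNA probes lost), spots of a probe were averaged as log2, and each array's 75th percentile over non-control probes was subtracted. A probe was well above background when this was called in over 50% of its spots. Partners, distances and shared stretches of at least 20 bases used the array's own coordinates and sequences. RefSeq tables (GRCm38.p6) gave names, neighbouring genes, promoter windows and hairpins only. Exons, introns and UTRs were not analysed here. The number of arrays limits the precision.

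The genes named were the 10 brightest members (1 per region and strand), the 5 regions with most members, probes at the limits, the 5 brightest members within 1 kb of a gene probe, the 5 brightest with a discordant partner, up to 3 matches to promoters or hairpins, the list of named long non-coding genes and tissue markers, none from chromosome 18. Members sharing sequence with genes elsewhere, the opposite-strand and AATAAA examples, the chromosome 17 and other dense loci and the inner regions of Malat1 were singled out after their values were seen. The members and lists were chosen with earlier results of these data known. Scripts (Python 3.11.15, pandas 2.3.3, limma 3.58.1) were tested on simulated data. Alternatives covered scaling, background correction, detection, outliers, limits and the choice of partners.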

Additional observations from a re-analysis of the deposited data

How the results depend on the processing

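The number of members stayed between 921 and 1585 under all alternatives, against 1247. It was 921 with scaling to the mean of 8 spike-ins, of which 858 were among the 1247, and 963 with their median, an alternative added after the data were seen. It was 1477 with another background correction, 982 and 1585 with level limits of -0.5 and -1.5, and 995 and 1330 with difference limits of 0.58 and 1.5. The median skin minus tooth of the members moved from 0.14 to -0.11 with scaling to the median of all probes, to -0.55 with the spike-in mean and to -0.49 with the spike-in median. By construction these scalings shift all differences alike, by -0.25, -0.69 and -0.62. With the more lenient call of signal above background, the share of members with a partner above background rose from 83.3% to 94.3% on the same strand and from 79.1% to 95.2% on the opposite strand, because more probes pass that call. With partners that are not members only, added after the data were seen, these shares were 68.9% and 71.0% and the median partner gap was 0.44, because members pass the call and the difference limit by the rule. Without a detection call these shares and the partner gap have no value. The median gap stayed between 0.23 and 0.33 under the other alternatives. Of 57 named probes, 32 changed the sign of their difference with the spike-in mean, 31 with the spike-in median, 13 with the median of all probes, 5 with quantile normalisation, and 1 each with the other background correction and the authors' table. No paired analysis was possible because each tissue had 1 array. Dim signal limits the statements on partners, since a probe below background may still see RNA.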
